A study of Mus musculus with 9 samples.

Results

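Imprinted genes are expressed mainly from the copy inherited from 1 parent. The set described here is a list of 40 mouse imprinted genes, drawn up by name, of 20018 named genes with a probe on the array. By common knowledge, 19 of them are expressed from the maternal copy, 20 from the paternal copy, and Gnas from either copy depending on the transcript. Of the maternally expressed genes, Cd81, Tssc4, Nap1l4, Osbpl5, Slc22a3, Ube3a, Ppp1r9a, Copg2, Atp10a and Grb10 are known to be imprinted in some tissues only. The same holds for the paternally expressed Rasgrf1. Whether these genes are imprinted in the cells studied here was not measured. The 40 genes were measured on 9 one-colour microarrays, 1 per clone, of cells from mouse embryos of 3 ploidies, meaning numbers of chromosome sets.

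The groups were 3 triploid clones (3 sets of chromosomes), 3 tetraploid clones (4 sets) and 3 diploid clones (2 sets). All 9 clones, the diploid ones included, carry the genotype p53-/- in the genotype label and thus lack the tumour suppressor p53. The free-text descriptions of all clones but diploid clone 1 print other numbers after the letter p. Cells were grown in serum-supplemented MEM and received no treatment. Each sample was 1 clone, strain and embryonic age are not given in the sources used here, and nothing states that clones came from separate embryos or cultures, so that p-values measure only the spread between these samples. The sample names of 7 clones are extensions of RRI2, the name of diploid clone 1. The title of the series ties triploidy to genome instability in tumours, and the comparison of ploidies asks which genes differ with the number of sets. For imprinted genes the added question is whether an extra set goes with unequal output of maternal and paternal copies. The arrays measure the summed RNA of all copies of a gene and do not separate the parental ones, and the parental origin of the extra sets is not stated.

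As background, imprinting rests on DNA methylation laid down in the germ line at control regions rich in CG dinucleotides, and each control region sets the active copy of a cluster of neighbouring genes. Among textbook members, the paternally expressed Igf2 drives fetal growth, while the maternally expressed Igf2r, Cdkn1c, Grb10 and Phlda2 restrain it. Embryonic fibroblasts are known to express many imprinted genes, and cultured cells can gain or lose methylation at imprinted regions.

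Of the 40 genes, 39 had at least 1 probe and 64 probes in all. No probe was matched to H19, the maternally expressed non-coding RNA beside Igf2, and it was not analysed here. Levels are log2 signals relative to the 75th percentile of the same array, so 0 is that percentile and 1 unit is a doubling. Each gene is given by its brightest probe. A gene was tested when all 3 arrays of some ploidy called a probe of it well above background, and 28 genes passed, 13 of 19 maternally and 14 of 20 paternally expressed ones and Gnas. These 28 are a selection, since a gene that passed through 1 ploidy only had to be bright there.

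The paternally expressed genes differed widely from clone to clone, including clones of the same ploidy, and most maternally expressed genes did not. Many of the latter are known to be imprinted in some tissues only. Plagl1, Mest, Dlk1, Peg12, Ndn, Snrpn, Nnat and Slc38a4, all paternally expressed, spanned at least 4.98 (Ndn) to 9.44 (Mest) log2 units between the lowest and the highest clone. These spans set a clone in which a gene was not well above background, called dark here, to the lowest signal above background on its array, or to its own signal if that was higher. No tested imprinted gene passed the threshold in any comparison of ploidies: 0 of 28 between triploid and diploid clones, 0 of 28 between tetraploid and diploid clones and 0 of 28 between triploid and tetraploid clones (limma, adjusted p under 0.05). Over all 21800 features tested, the shares called were 1.83%, 0.0734% and 2.70% in the same order. At an unadjusted p under 0.05 the imprinted genes numbered 6, 6 and 9 of 28 (21.4%, 21.4% and 32.1%). The shares of all features at that cut were 21.2%, 14.8% and 20.8%.

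The promoters of 5 of the genes are shown first, because Plagl1 and Mest had the widest spans over the clones, Peg3 was detected in part of the clones, and Ndn and Peg12, neighbours on chromosome 7, moved together. Each is the RefSeq window on assembly GRCm38.p6 of 250 bases before and 50 after the start of the gene, printed 5′ to 3′ on the strand of the gene, with every CG dinucleotide, the unit that is methylated, in capitals. Mest lies at chr6:30737800-30738099 on the plus strand, Plagl1 at chr10:13090582-13090881 on the plus strand, Peg3 at chr7:6730370-6730669 on the minus strand, Ndn at chr7:62348027-62348326 on the plus strand and Peg12 at chr7:62464461-62464760 on the minus strand.
Mest: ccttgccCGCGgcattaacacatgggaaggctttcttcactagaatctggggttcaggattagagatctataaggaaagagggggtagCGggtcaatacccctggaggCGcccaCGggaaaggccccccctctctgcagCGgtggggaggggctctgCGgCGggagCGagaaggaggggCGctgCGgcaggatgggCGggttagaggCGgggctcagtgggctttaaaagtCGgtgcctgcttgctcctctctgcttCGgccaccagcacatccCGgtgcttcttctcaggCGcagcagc
Plagl1: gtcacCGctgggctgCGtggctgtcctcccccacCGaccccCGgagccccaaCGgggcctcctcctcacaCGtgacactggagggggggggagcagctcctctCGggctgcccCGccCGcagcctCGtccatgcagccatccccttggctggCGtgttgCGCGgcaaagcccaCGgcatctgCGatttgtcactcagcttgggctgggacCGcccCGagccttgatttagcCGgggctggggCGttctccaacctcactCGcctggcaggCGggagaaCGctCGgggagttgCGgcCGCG
Peg3: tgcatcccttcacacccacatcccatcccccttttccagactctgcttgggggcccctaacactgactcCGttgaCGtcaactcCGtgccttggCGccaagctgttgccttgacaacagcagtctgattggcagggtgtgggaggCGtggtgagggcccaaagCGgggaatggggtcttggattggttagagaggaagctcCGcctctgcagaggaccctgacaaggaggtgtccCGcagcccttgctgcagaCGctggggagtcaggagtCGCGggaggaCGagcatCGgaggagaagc
Ndn: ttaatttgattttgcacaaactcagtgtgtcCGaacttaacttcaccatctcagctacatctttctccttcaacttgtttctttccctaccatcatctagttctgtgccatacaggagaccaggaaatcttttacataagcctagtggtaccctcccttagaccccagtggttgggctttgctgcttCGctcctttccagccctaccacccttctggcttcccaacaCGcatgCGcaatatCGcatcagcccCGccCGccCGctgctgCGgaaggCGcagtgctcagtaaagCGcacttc
Peg12: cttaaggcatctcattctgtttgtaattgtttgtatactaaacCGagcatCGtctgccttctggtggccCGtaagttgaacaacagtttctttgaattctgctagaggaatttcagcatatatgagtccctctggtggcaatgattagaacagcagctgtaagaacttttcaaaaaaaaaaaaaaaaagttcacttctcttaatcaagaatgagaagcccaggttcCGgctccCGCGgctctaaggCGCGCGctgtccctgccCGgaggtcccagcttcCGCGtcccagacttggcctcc

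Mest has 3 starts in the table: the window shown was picked for its CG content, start 3 gives nearly the same window, and start 1 holds 8 CG dinucleotides and 0 motif matches. The windows of Plagl1, Mest, Peg3, Peg12 and Ndn held 26, 17, 13, 12 and 11 CG dinucleotides. Over the 52 promoters of 33 imprinted genes in the RefSeq table the median was 13.5, and over all 32851 promoters of the table it was 7. The motif TGCCGC, the hexamer known to be bound in its methylated form by the imprint-protecting zinc finger protein ZFP57, was sought on both strands (GCGGCA on the other). It occurred in 11 of the 52 promoters (21.2%) and in 3813 of all promoters (11.6%). The 11 include the nearly identical windows of Mest starts 2 and 3. The motif itself holds a CG, and the shares were not matched for CG content. The Mest window held 2 matches and the Plagl1 window 1, and those of Peg3, Ndn and Peg12 held 0. The arrays give no methylation or binding, so these letters describe the promoters and nothing more.

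**Figure D1:**
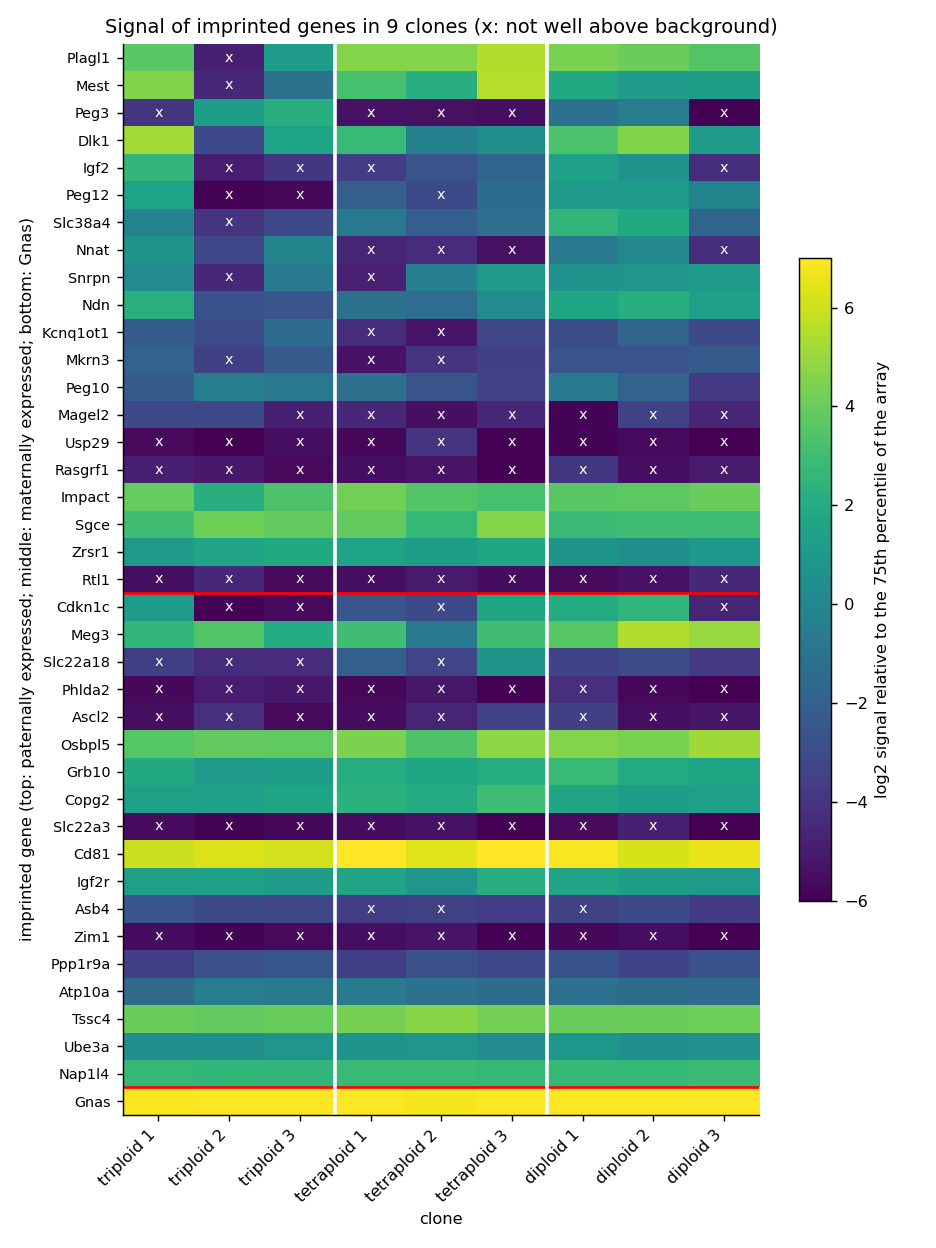
Each cell is the log2 signal of 1 imprinted gene, with that array's 75th percentile at 0 (rows, with paternally expressed genes on top, maternally expressed genes in the middle and Gnas at the bottom) in 1 clone (columns, triploid, tetraploid and diploid clones from left to right). A cross marks a signal not well above background. Most crosses that differ between clones lie among the paternally expressed genes.

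Detection is described first, for all 39 genes with a probe and with no test. Of the 39 genes, 18 lay well above background in all 9 clones, 15 in some clones and 6 in no clone. Among the 20 paternally expressed genes the counts were 6, 11 and 3, and among the 18 maternally expressed genes with a probe they were 11, 4 and 3. The paternally expressed genes above background numbered 16, 10 and 14 in triploid clones 1 to 3, 10, 11 and 14 in the tetraploid clones, and 16, 16 and 13 in the diploid clones. The same count for the maternally expressed genes was 13, 12 and 12 in triploid clones, 13, 11 and 15 in tetraploid clones and 13, 14 and 13 in diploid clones. The paternal counts of all 3 groups overlapped, and triploid clone 1 had as many genes above background as diploid clones 1 and 2. In bulk RNA, fewer cells with a gene switched on and less RNA per cell cannot be told apart.

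The 6 genes dark in every clone were Rtl1, a retrotransposon-derived gene needed in placental capillaries, Phlda2, a brake on placental growth, Slc22a3, an organic cation transporter, Zim1, a zinc finger gene of the Peg3 cluster, Usp29, a deubiquitinase gene of the same cluster, and Rasgrf1, an exchange factor for Ras. Ascl2, a transcription factor of the trophoblast, was above background in tetraploid clone 3 alone. Magel2, a MAGE-family partner of ubiquitin ligases, was above background in triploid clones 1 and 2 alone.

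Plagl1, a zinc finger transcription factor known to regulate other imprinted growth genes, spanned at least 9.39 log2 units. Its levels were 3.65, -4.84 and 1.18 in triploid clones 1 to 3, against 4.61, 4.61 and 5.5 in tetraploid clones and 4.38, 4.03 and 3.49 in diploid clones. Triploid clone 2, the only clone not above background, was at least 669-fold below tetraploid clone 3, while triploid clone 1 lay within the diploid levels. The difference was -3.97 ± 1.69 (SE) on the log2 scale between triploid and diploid clones (limma, adjusted p = 0.219) and -4.91 ± 1.69 between triploid and tetraploid clones (adjusted p = 0.144), neither past the threshold. The second of 4 Plagl1 probes had the same pattern (r = 0.999 across clones), whereas probes 3 and 4 were above background in all 9 clones and ranged over 1.46 and 1.12 log2 units only.

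Mest, which encodes a hydrolase-like protein that promotes embryonic growth, spanned at least 9.44 log2 units. Its levels were 4.54, -4.49 and -1.09 in triploid clones, against 3.22, 2.20 and 5.56 in tetraploid clones and 1.89, 1.21 and 1.22 in diploid clones. Triploid clone 2 was again the only clone not above background, at least 695-fold below tetraploid clone 3, and all 3 tetraploid clones lay above all 3 diploid clones. The triploid clones included a level above every diploid clone and others below every diploid clone. All 3 probes of Mest agreed (r = 0.998 and 0.924 with the brightest). Copg2, a subunit gene of the COPI coat that overlaps Mest, ranged over 1.70 log2 units. It averaged 2.41 ± 0.49 in tetraploid clones and 1.42 ± 0.22 in diploid clones (SD, n = 3 each), a difference of 0.99 ± 0.28 (SE; limma, adjusted p = 0.152). Across the 9 clones Mest and Copg2 correlated at r = 0.55 (exact permutation p = 0.127, adjusted over 8 neighbour pairs 0.338). Without tetraploid clone 3 and triploid clone 2, the farthest from the median of Mest, r was 0.19.

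Dlk1, a membrane ligand related to Notch ligands that restrains fat cell formation, had levels of 5.21, -3.14 and 1.52 in triploid clones, against 2.83, -0.31 and 0.41 in tetraploid clones and 3.33, 4.52 and 1.19 in diploid clones. The lowest and the highest of the 9 clones, 327-fold apart, were both triploid. Meg3, the maternally expressed non-coding RNA of the same cluster on chromosome 12, had levels of 2.58, 3.49 and 2.02 in triploid clones, against 3.02, -0.73 and 2.99 in tetraploid clones and 3.64, 5.52 and 4.97 in diploid clones. On this brightest probe every diploid clone lay above every triploid and every tetraploid clone. The same held on Meg3 probe 2, which was dark in tetraploid clone 2 alone. On Meg3 probe 3 diploid and triploid clones overlapped. There triploid clone 2, at -1.75, lay above diploid clones 1 and 3, at -2.38 and -2.13. Probe 3 was dark in every tetraploid clone and in triploid clone 1. On the brightest probe the tetraploid minus diploid difference was -2.95 ± 0.96 (SE, limma, adjusted p = 0.204). Triploid clone 2, lowest for Dlk1, had the highest Meg3 level of its group. Over the 9 clones Dlk1 and Meg3 correlated at r = 0.29 (exact permutation p = 0.444). Without triploid clones 1 and 2, the farthest from the median of Dlk1, r was 0.70 (exact permutation p = 0.073).

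**Figure D2:**
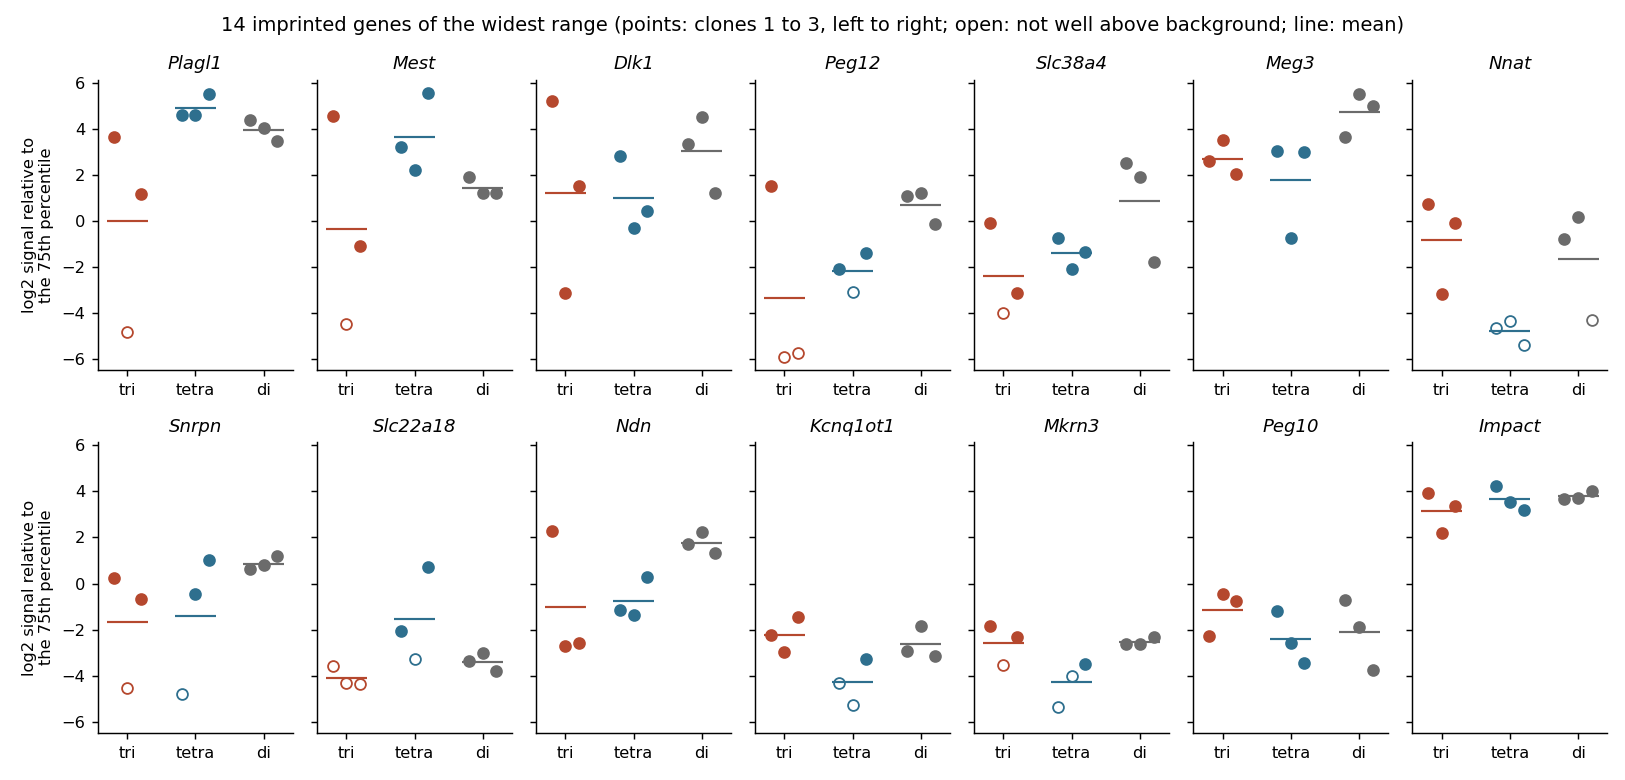
Log2 signal with the 75th percentile of each array at 0 (vertical axes) for the 14 tested imprinted genes of widest range, with triploid, tetraploid and diploid clones from left to right and clones 1 to 3 in order within each ploidy. Horizontal lines are group means, and open points are signals not well above background. Triploid clone 2 is open or lowest of its group for Plagl1, Mest, Dlk1, Peg12, Slc38a4, Nnat, Snrpn and Ndn.

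The region of chromosome 7 that corresponds to the human Prader-Willi and Angelman locus held 7 of the genes. Ndn, a MAGE-family gene known to restrain cell growth, was above background in every clone. Its levels were 2.26, -2.72 and -2.56 in triploid clones, against -1.15, -1.36 and 0.28 in tetraploid clones and 1.71, 2.22 and 1.33 in diploid clones. All tetraploid clones lay below all diploid clones, and triploid clone 1 lay just above the diploid clones while the other triploid clones were the lowest of the 9. The triploid minus diploid difference was -2.76 ± 1.16 (SE; limma, adjusted p = 0.213).

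Peg12, a gene of the Frat family of GSK3-binding proteins, starts 116 kb from Ndn. Its levels were 1.52, -5.92 and -5.73 in triploid clones, against -2.08, -3.10 and -1.42 in tetraploid clones and 1.06, 1.19 and -0.15 in diploid clones. It qualified for testing through the diploid clones alone. It was not above background in triploid clones 2 and 3 and tetraploid clone 2, and every tetraploid clone lay below every diploid clone. The triploid minus diploid difference was -4.08 ± 1.68 (SE, limma, adjusted p = 0.208), and -2.72 with dark spots at the lowest signal above background. It was -1.87 with another background correction (normexp). Normexp was run here with an offset of 50 added to every signal, which by itself shrinks log2 differences of dim probes. Ndn and Peg12 ranked the 9 clones in the same order (Pearson r = 0.98, exact permutation p = 2.76e-06, the smallest that 9 clones can give, adjusted over 8 neighbour pairs 2.2e-05, and Spearman rho = 1, exact permutation p = 5.51e-06), with the order among the clones dark for Peg12 not meaningful. Without triploid clones 2 and 3, the farthest from the median of Ndn, r was 0.977. Without diploid clone 1, the only array of its slide, it was 0.980. The clones share ploidies, and a group of 3 is too small for a correlation of its own.

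**Figure D3:**
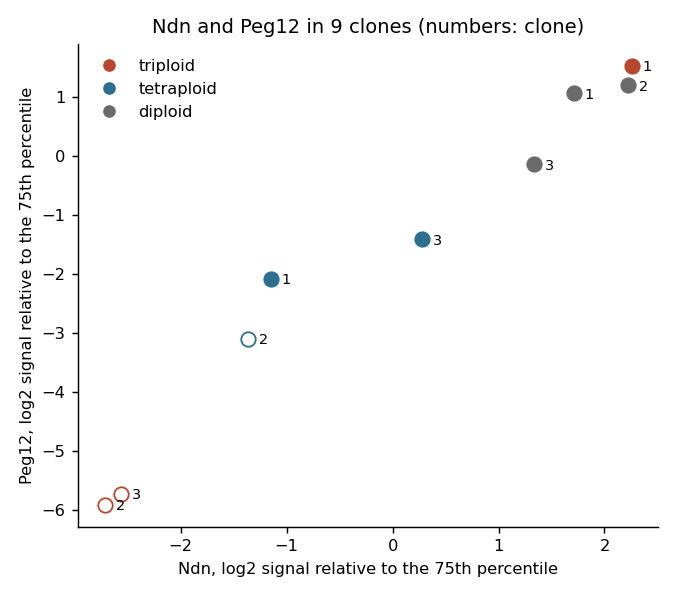
Levels of Ndn (horizontal axis) and Peg12 (vertical axis), both log2 signals with each array's 75th percentile at 0, with 1 point per clone, numbered within its ploidy. Open points mark clones where Peg12 was not well above background, and triploid clone 1 sits with the diploid clones at the upper right.

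Snrpn, which encodes the spliceosomal protein SmN and starts the long paternal transcript of the region, had levels of 0.26, -4.53 and -0.68 in triploid clones, against -4.79, -0.44 and 1.02 in tetraploid clones and 0.62, 0.78 and 1.19 in diploid clones. It qualified for testing through the diploid clones alone. It was dark in triploid clone 2 and tetraploid clone 1, and all triploid clones lay below all diploid clones. Tetraploid clone 1 was thus dark for Snrpn while above background for Ndn and Peg12, and the correlation of Snrpn with Ndn was r = 0.69 (exact permutation p = 0.0345, adjusted 0.138). Mkrn3, a ubiquitin ligase known as a brake on puberty, had levels of -1.85, -3.52 and -2.33 in triploid clones, against -5.37, -4.01 and -3.51 in tetraploid clones and -2.65, -2.64 and -2.30 in diploid clones. It too qualified for testing through the diploid clones alone, and was dark in triploid clone 2 and tetraploid clones 1 and 2. All diploid clones lay above all tetraploid clones, a difference of -1.77 ± 0.53 (SE; limma, adjusted p = 0.174) for tetraploid minus diploid. For triploid minus tetraploid clones the difference was 1.73 ± 0.53 (adjusted p = 0.110). These fitted sizes rest on dark signals. With dark spots at the lowest signal above background, or at their own signal if higher, they were -0.96 and 0.93. With normexp they were -0.33 and 0.32.

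The maternally expressed genes of that region varied less. Ube3a, the ubiquitin ligase gene of Angelman syndrome, whose imprint is known mainly in neurons, ranged over 0.62 log2 units. It averaged 0.55 ± 0.20 in triploid clones, 0.56 ± 0.27 in tetraploid clones and 0.66 ± 0.19 in diploid clones (SD, n = 3 each). Atp10a, a phospholipid flippase, ranged over 1.05 log2 units. Snrpn and Ube3a correlated at r = 0.01 (exact permutation p = 0.977). Without tetraploid clone 1 and triploid clone 2, the farthest from the median of Snrpn, r was -0.56 (exact permutation p = 0.189).

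Igf2, the paternally expressed fetal growth factor, was above background in 5 clones, in no ploidy on all 3 arrays, and so was not tested. Its levels were 2.60, -5.02 and -3.94 in triploid clones, against -3.65, -2.68 and -1.81 in tetraploid clones and 1.42, 0.66 and -4.31 in diploid clones. Triploid clone 1 was the highest and triploid clones 2 and 3 were dark, as were tetraploid clone 1 and diploid clone 3, and the range was at least 104-fold. Its clearance receptor Igf2r, maternally expressed, ranged over 1.30 log2 units and averaged 1.32 ± 0.11 in triploid, 1.5 ± 0.66 in tetraploid and 1.28 ± 0.31 in diploid clones (SD, n = 3 each).

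Peg3, a paternally expressed zinc finger gene, was also dark in part of the clones and untested. Its levels were -4.01, 1.26 and 2.20 in triploid clones, against -5.36, -5.40 and -5.54 in tetraploid clones and -1.11, -0.51 and -6.16 in diploid clones. It was above background in triploid clones 2 and 3 and diploid clones 1 and 2, and in 0 of 3 tetraploid clones. The pattern ran opposite to that of Igf2 and Peg12 within the triploid group, where clone 1 was the dark one. Usp29, whose start lies 0.164 kb from that of Peg3 so that the promoter windows share 263 bases, was dark even in the clones with Peg3 signal.

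Cdkn1c, the maternally expressed CDK inhibitor p57, was dark in part of every group. Its levels were 1.19, -5.90 and -5.69 in triploid clones, against -2.53, -3.08 and 1.68 in tetraploid clones and 2.00, 2.55 and -4.63 in diploid clones. The clones with signal were triploid clone 1, tetraploid clones 1 and 3 and diploid clones 1 and 2, a range of at least 101-fold. Kcnq1ot1, the paternally expressed non-coding RNA that silences this cluster in cis, had levels of -2.22, -2.99 and -1.44 in triploid clones, against -4.32, -5.28 and -3.29 in tetraploid clones and -2.94, -1.87 and -3.14 in diploid clones. Every tetraploid clone lay below every triploid and every diploid clone, with differences of -1.65 ± 0.57 for tetraploid minus diploid (SE; limma, adjusted p = 0.234) and 2.08 ± 0.57 for triploid minus tetraploid (adjusted p = 0.086). Tetraploid clones 1 and 2 were dark, and the differences were -0.77 and 1.2 with dark spots at the lowest signal above background and -0.45 and 0.63 with normexp. A second Kcnq1ot1 probe was above background in tetraploid clone 1 alone, at -2.14, and so disagreed with the brightest probe there.

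Slc22a18, a maternally expressed transporter gene of the same cluster, had levels of -3.61, -4.31 and -4.36 in triploid clones, against -2.06, -3.27 and 0.73 in tetraploid clones and -3.38, -3.0 and -3.82 in diploid clones. No triploid clone lay above background, tetraploid clone 2 was dark too, and tetraploid clone 3 stood above all others. The fitted triploid minus tetraploid difference was -2.56 ± 0.83 (SE, limma, adjusted p = 0.129), which is no bound. With dark spots at the lowest signal above background, or at their own signal if higher, it was -2.18, and with normexp -1.23. Of the remaining maternally expressed genes of the cluster, Cd81, a tetraspanin, ranged over 1.31 log2 units, Osbpl5, a lipid transfer protein, over 1.72, Tssc4, a chaperone of spliceosome assembly, over 0.80 and Nap1l4, a histone chaperone, over 0.28. Osbpl5 averaged 3.76 ± 0.18 in triploid clones and 4.70 ± 0.40 in diploid clones (SD, n = 3 each), a difference of -0.94 ± 0.36 (SE; limma, adjusted p = 0.181). Cd81 and Tssc4 differed by -0.78 ± 0.29 and -0.47 ± 0.20 between triploid and tetraploid clones (adjusted p = 0.168 and 0.219), and in neither gene did these groups overlap. The second Nap1l4 probe disagreed with the brightest (r = -0.47).

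On chromosome 6, Peg10, a retrotransposon-derived gene needed for the placenta, had levels of -2.29, -0.44 and -0.75 in triploid clones, against -1.20, -2.57 and -3.45 in tetraploid clones and -0.74, -1.88 and -3.77 in diploid clones. The 3 groups overlapped. Sgce, a sarcoglycan gene that shares its promoter region with Peg10, ranged over 1.84 log2 units and correlated with Peg10 at r = 0.14 (exact permutation p = 0.712). Without diploid clone 3 and tetraploid clone 3, the farthest from the median of Peg10, r was 0.71 (exact permutation p = 0.0855). Asb4, a SOCS box gene, averaged -2.96 ± 0.35 in triploid and -3.59 ± 0.13 in tetraploid clones (SD, n = 3 each), a difference of 0.63 ± 0.26 (SE; limma, adjusted p = 0.216), or 0.15 with normexp. It was dark in tetraploid clones 1 and 2 and diploid clone 1, and qualified for testing through the triploid clones alone. Its second probe, not tested, was bright in diploid clones 1 and 2 alone, at -0.40 and -0.36. Ppp1r9a, the gene of the actin-binding protein neurabin, ranged over 1.08 log2 units.

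Of the imprinted genes that stand alone, Nnat, a small membrane protein gene, had levels of 0.72, -3.16 and -0.11 in triploid clones, against -4.64, -4.36 and -5.40 in tetraploid clones and -0.77, 0.14 and -4.30 in diploid clones. It was dark in all 3 tetraploid clones and in diploid clone 3. By group means, triploid clones lay at least 7.82-fold above tetraploid clones. The fitted difference was 3.95 ± 1.21 (SE, limma, adjusted p = 0.113), and 1.63 with normexp. Triploid clone 2, at -3.16, lay close to the lowest signal above background of tetraploid clone 2, -3.36. A second Nnat probe, not tested, was dark in triploid clone 2. Nnat qualified for testing through the triploid clones alone. Between tetraploid and diploid clones the fitted difference was -3.16 ± 1.21 (adjusted p = 0.272), which is no bound, and -1.24 with normexp. Slc38a4, an amino acid transporter of placenta and liver, had levels of -0.11, -4.0 and -3.15 in triploid clones, against -0.75, -2.12 and -1.34 in tetraploid clones and 2.5, 1.92 and -1.80 in diploid clones. Diploid clone 3 lay among the polyploid clones, and the triploid minus diploid difference was -3.29 ± 1.22 (SE; limma, adjusted p = 0.172).

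Impact, an inhibitor of the stress kinase GCN2, had levels of 3.91, 2.20 and 3.37 in triploid clones, against 4.22, 3.53 and 3.22 in tetraploid clones and 3.68, 3.71 and 4.03 in diploid clones, with all groups overlapping. Zrsr1, a paternally expressed gene related to the splicing factor U2AF, averaged 1.5 ± 0.46 in triploid clones, 1.49 ± 0.24 in tetraploid clones and 0.70 ± 0.23 in diploid clones (SD, n = 3 each). Both polyploid groups lay wholly above the diploid clones, by 0.80 ± 0.28 and 0.79 ± 0.28 (SE; limma, adjusted p = 0.158 and 0.241). Grb10, the maternally expressed adaptor that dampens insulin and IGF receptors, ranged over 1.72 log2 units. Gnas, the gene of the stimulatory G protein alpha subunit, ranged over 0.54 log2 units and averaged 7.08 ± 0.17 in triploid, 7.14 ± 0.27 in tetraploid and 7.03 ± 0.01 in diploid clones (SD, n = 3 each).

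**Figure D4:**
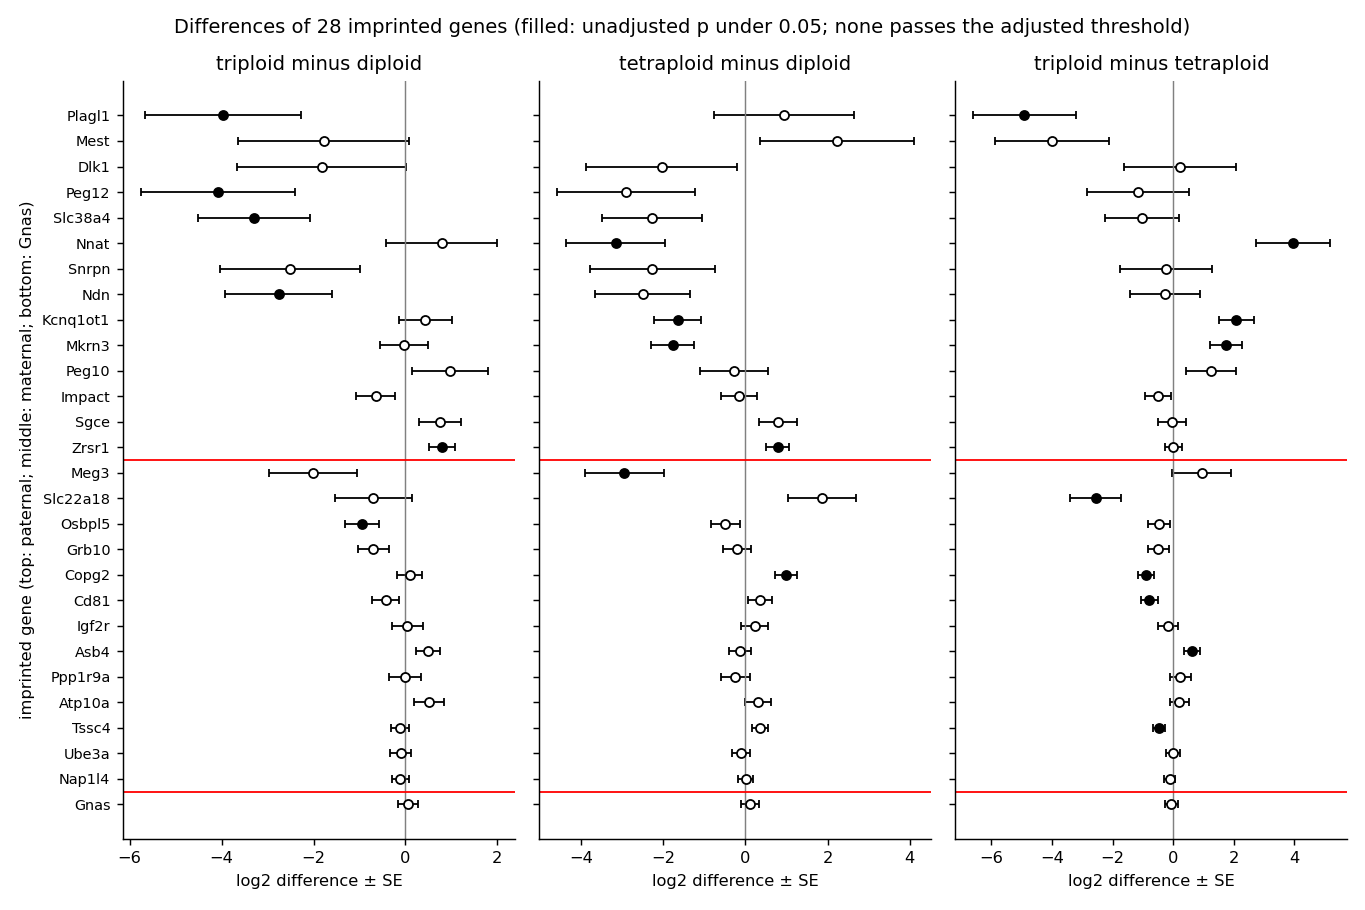
Log2 difference (horizontal axes, points with bars of 1 SE from the limma model) of the 28 tested imprinted genes for triploid minus diploid, tetraploid minus diploid and triploid minus tetraploid clones. Filled points have an unadjusted p under 0.05, and no gene passed the adjusted threshold. The longest bars belong to paternally expressed genes such as Mest and Dlk1, and bars of the maternally expressed Meg3 and Slc22a18 are longer than those of Kcnq1ot1 and Mkrn3.

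Counts over the tested imprinted genes were read against the same counts over all features. An unadjusted p under 0.05 was found for 6 of 28 genes between triploid and diploid clones (21.4%, against 21.2% of all features), for 6 of 28 between tetraploid and diploid clones (21.4%, against 14.8%) and for 9 of 28 between triploid and tetraploid clones (32.1%, against 20.8%). Clones of the groups did not overlap for 6 genes in the first comparison (21.4%, against 28.0%), 11 in the second (39.3%, against 22.1%) and 8 in the third (28.6%, against 26.0%). Some of these ranks lie among dark signals: with dark clones counted by their bound, a choice made after seeing the data, the counts were 6 (against 27.7% of features), 10 (35.7%, against 21.4%) and 7 (25.0%, against 25.2%), without Nnat in the second and Slc22a18 in the third. The comparisons share clones, so these counts are not independent of each other. Median log2 differences of the 14 paternally expressed genes were -1.22, -1.71 and -0.14 in the same order, of the 13 maternally expressed genes -0.11, 0.00 and -0.18, and of all features 0.10, -0.01 and 0.17. These medians describe the genes that passed the filter and were given no test.

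Spread between clones of 1 ploidy was wide among the paternally expressed genes that were tested. The SD between clones of 1 ploidy, pooled over the groups, had a median of 1.78 log2 units over the 14 paternally expressed genes, 0.40 over the 13 maternally expressed genes and 0.37 over all 21800 features. A range over 2 log2 units was found for 12 of 14 paternally expressed genes, for 2 of 13 maternally expressed genes (Meg3 and Slc22a18) and for 22.5% of all features. With dark clones at the lowest signal above background, the median SD was 1.76, 0.40 and 0.37, and such a range was found for 11 of 14, 2 of 13 and 20.7% of features. Kept to genes above background in all 9 clones, the median SD was 0.94 for 6 paternally expressed genes, 0.40 for 11 maternally expressed genes and 0.35 for 18257 features, and a range over 2 log2 units was found for 4, 1 and 15.4% of them. By ploidy, the median SD of the paternally expressed genes was 2.04 in triploid, 0.91 in tetraploid and 0.45 in diploid clones, and 0.93, 0.91 and 0.34 over the 6 above background in all clones. Several, such as Peg12, Snrpn and Mkrn3, passed the filter through the diploid clones alone, which bears on the order of these medians. Over all features it was 0.31, 0.36 and 0.31 in the same order. The difference in spread was not tested.

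**Figure D5:**
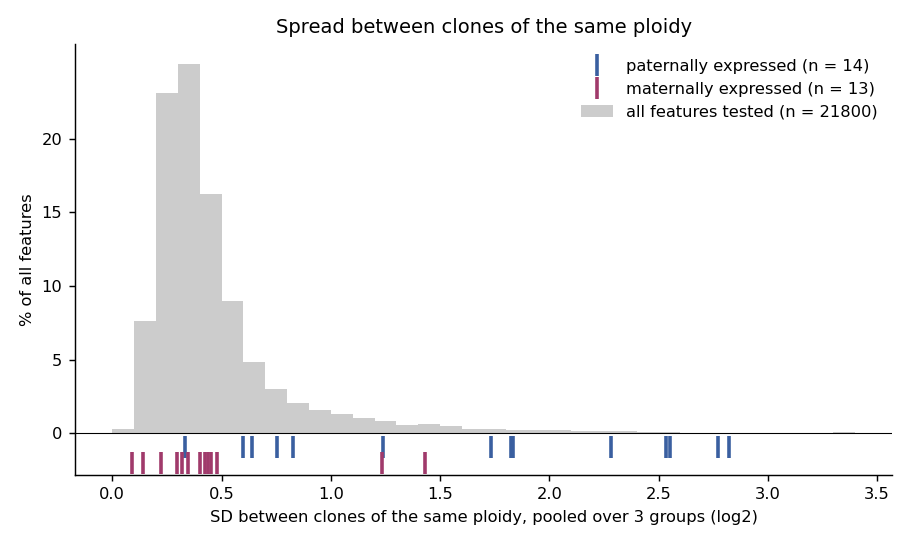
Distribution over all 21800 features of the SD between clones of the same ploidy, pooled over the 3 groups (horizontal axis, log2 units; vertical axis, percent of features). Ticks under the histogram are the 14 paternally and 13 maternally expressed genes, and the paternal ticks reach further right, with a median of 1.78 against 0.40, dark signals included as measured.

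Triploid clone 1 stood apart from the other triploid clones. Over the imprinted genes, each centred on its mean, triploid clones 2 and 3 correlated at 0.64, triploid clone 1 with triploid clones 2 and 3 at -0.64 and -0.32, with diploid clones 1 to 3 at 0.59, 0.66 and 0.02, and with the tetraploid clones at -0.28 to -0.15. A low correlation within a ploidy was not particular to triploid clone 1. Over the centred imprinted genes, diploid clone 3 correlated with diploid clones 1 and 2 at 0.11 and 0.25. The tetraploid clones correlated with each other at 0.26 to 0.48. Over all features, where levels were not centred, triploid clones 2 and 3 correlated at 0.985, and triploid clone 1 with them at 0.948 and 0.956. Pairs within the other ploidies ranged from 0.955 (tetraploid clones 2 and 3) to 0.981 (diploid clones 1 and 2). With diploid clones 1 to 3, triploid clone 1 correlated at 0.959, 0.964 and 0.949 over all features. These are correlations across genes, which are not independent replicates. Without triploid clone 1, Peg12, Plagl1 and Ndn passed the test between triploid and diploid clones, at -6.53, -5.80 and -4.39 (limma, adjusted p = 0.000719, 0.0463 and 0.0028). Between triploid and tetraploid clones Peg12, Mest and Plagl1 passed, at -3.62, -6.45 and -6.74 (adjusted p = 0.00883, 0.0151 and 0.0295). These are fitted values and no bounds, since Peg12 was dark in both remaining triploid clones and Plagl1 and Mest were dark in clone 2. Peg12 also qualified for testing through the diploid clones alone, where it had to be bright. The share of all features called in those comparisons was then 6.58% (3.99% lower) and 6.02% (3.66% lower). Without tetraploid clone 2, Slc22a18 passed between triploid and tetraploid clones, at a fitted -3.43 (adjusted p = 0.0429) against triploid clones that were all dark, with 4.21% of all features called (2.33% lower).

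Other lists were set beside the imprinted genes. Of 48 further imprinted genes, 43 had a probe, 30 were tested and 0 passed in any comparison. A range over 2 log2 units was found for 13 of these 30 (43.3%, against 22.5% of all features). Of 34 genes that write, read or erase imprints, such as the methyltransferases Dnmt1 and Dnmt3a and the binding proteins Zfp57, Trim28 and Ctcf, 28 were tested and 0 passed. At an unadjusted p under 0.05, 8 of these 28 were higher and 0 lower in triploid than in diploid clones (against 21.2% of all features in either direction). Of the same 28, 0 were higher and 1 lower in tetraploid than in diploid clones (against 14.8%). Between triploid and tetraploid clones 4 were higher and 0 lower in the triploid clones (against 20.8%). All features leaned the same way, with 57.8% higher in triploid than in diploid clones and 61.9% higher in triploid than in tetraploid clones, at any p. Of 28 partners of imprinted genes in growth control, such as Igf1r, Igf2bp1 and Notch1, 25 were tested and 0 passed. At an unadjusted p under 0.05, 1 was higher and 6 lower in triploid than in diploid clones (against 21.2% of all features). The counts were 1 and 1 for tetraploid minus diploid (against 14.8%) and 3 and 5 for triploid minus tetraploid clones (against 20.8%).

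Markers of the cell types the cultures could hold were set beside these levels. All 14 fibroblast markers were measured and 12 to 14 were above background in each clone, and Lum, a matrix proteoglycan, was the only one called, dark in all 3 triploid clones and at least 7.98-fold lower there than in tetraploid clones (limma, adjusted p = 0.0363). At an unadjusted p under 0.05, 3 of the 14 were higher and 7 lower in triploid than in diploid clones (against 21.2% of all features in either direction). Between tetraploid and diploid clones 0 were higher and 1 lower in the tetraploid clones (against 14.8%). Between triploid and tetraploid clones 1 was higher and 6 lower in the triploid clones (against 20.8%). In multiples of the 75th percentile of the array, the summed level of the fibroblast list was 1675 to 2925 in triploid, 2273 to 2954 in tetraploid and 2055 to 2546 in diploid clones. The summed level of 13 trophoblast markers was 13.2 to 20.7 in triploid, 15.7 to 21.4 in tetraploid and 31.0 to 37.6 in diploid clones, with the diploid clones above both other groups. In that list Cdx2, Elf5, Tfap2c, Hand1, Tpbpa, Psg21 and Ctsq were dark in all clones, and Prl3d1, a placental lactogen, was called lower in tetraploid than in diploid clones (log2 difference -2.53; limma, adjusted p = 0.0458). The summed level of 6 skeletal muscle markers was 2.96 to 13.6 in triploid, 8.24 to 16.4 in tetraploid and 21.3 to 25.6 in diploid clones, with Myod1, Myog, Myf5 and Des dark in all clones. Only 1 of the 6 was tested, with a mean level of 3.59 log2 units. Only 1 was above background in each triploid and tetraploid clone, and 1 to 2 in the diploid clones. The sum is thus no measure of the list as a whole. Per clone, 4 to 6 of 9 pluripotent markers were above background (Pou5f1 and Zfp42 dark in all clones), 1 to 5 of 7 epithelial (Epcam and Cdh1 dark), 2 of 5 blood (Ptprc, Adgre1 and Gata1 dark) and 5 of 7 neural markers (Pax6 and Dcx dark). The counts were 2 to 3 of 5 for endothelial (Emcn dark), 0 to 1 of 4 for liver (Alb, Ttr and Apoa1 dark) and 0 to 2 of 6 for germ line markers (Dazl, Mael and Sycp3 dark). The summed germ line level was 0.186 to 16.6 in triploid, 0.173 to 1.60 in tetraploid and 0.316 to 1.2 in diploid clones. Only 1 germ line marker was tested, and 0 to 1 were above background per triploid clone, so this sum too does not describe its list. The part of cell makeup in the levels of imprinted genes was not tested.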

How the data were processed

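Gene expression was measured in 9 clones, 1 array each. Per the file headers, Feature Extraction 10.7.3.1 read the arrays, whose probes were designed on mm9. The authors deposited processed signal intensity per spot, after background subtraction by that software and with no scaling between arrays, and a table of log2 values relative to diploid clone 1, which matched the scanner values within 0.001 at 99.98% of values once an array constant and that clone were taken off. RNA was column-purified and labelled with Cy3 (Quick Amp), per the labels' protocols.

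From these, spots of 1 probe were averaged on the log2 scale after outlier spots were left out, and the 75th percentile of each array was subtracted (215 to 407 intensity units over probes). Such scaling removes any change in RNA per cell. Between 44.8% and 50.9% of spots per array were well above background and 0 were saturated. The number of clones limits the precision. Probes were kept when all 3 arrays of some ploidy called them well above background, and the brightest kept probe stood for a gene. Of 22 other probes of the imprinted genes, 15 were kept and 9 of these correlated with the brightest at over 0.9. Array accessions were named through a RefSeq table of GRCm38.p6: 26413 of 55681 probes had a symbol.

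Models with a mean per group were run in limma 3.58.1 (R 4.3.3) over all 9 arrays and 21800 features (12437 named genes), with Benjamini-Hochberg adjustment and a threshold of 0.05; the steps were tested on simulated data. A fold against clones not above background uses the lowest signal above background there and is given as "at least". Neighbour pairs had exact two-sided permutation tests. Values of every clone are given for the 14 tested genes with the widest range of signals, dark ones as measured; clone values of Igf2, Peg3 and Cdkn1c come with their clusters. The imprinted genes and all lists were chosen with earlier results of these data known. Alternatives covered scaling, background correction, the deposited table, filters, the choice of probe, slide and clone number as blocks, and each clone left out. Diploid clone 1 was alone on its slide, so slide as a block equals leaving it out.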

Additional observations from a re-analysis of the deposited data

How the results depend on the processing

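In the reported fit, 6, 6 and 9 of 28 imprinted genes had an unadjusted p under 0.05 (limma), against 21.2%, 14.8% and 20.8% of all features. The count of 0 imprinted genes past the adjusted threshold held in each comparison under the alternatives run, apart from those that leave out triploid clone 1 or tetraploid clone 2. With 1 clone left out in turn, the count ranged from 0 to 3 for triploid minus diploid and from 0 to 3 for triploid minus tetraploid clones, and was 0 for tetraploid minus diploid clones. The value without triploid clone 1 was 3 in both of the first comparisons, and that without tetraploid clone 2 was 1 for triploid minus tetraploid clones. The cause was not tested. Of 1905 values of single genes under the alternatives, 91 changed sign, 0 of them with an unadjusted p under 0.05 in the reported fit. Counts over all features moved more: 61 to 1434 for triploid minus diploid against 400 as reported, 0 to 97 against 16 for tetraploid minus diploid, and 117 to 1312 against 589 for triploid minus tetraploid. Scaling to the 75th percentile of probes detected on all arrays moved the median of all features to -0.05, -0.14 and 0.15, and scaling to the median to 0.01, 0.15 and -0.09, in the same order. The split of called features moved with it: 119 higher and 441 lower with the detected-probe percentile, against 134 and 266 as reported, for triploid minus diploid clones, and 142 higher and 395 lower with median scaling, against 237 and 352, for triploid minus tetraploid clones. The deviations of clones that share a number correlated at r of -0.13 to 0.09. No strong shared deviation by number was seen, but these values cannot show that the clones are unpaired. With clone number as a replicate block, 0 imprinted genes were called in each comparison, and 219, 0 and 465 features overall. Signals near background give only bounds in dark clones, for the untested Igf2, Peg3 and Cdkn1c and the tested Peg12, Nnat, Mkrn3, Kcnq1ot1, Plagl1, Mest, Snrpn, Slc22a18, Slc38a4 and Asb4.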
